A study of Mus musculus with 12 samples.

Results

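Described here are 882 mouse gene areas whose 5-hydroxymethylcytosine (5hmC) signal was higher in all 4 differentiated T helper libraries than in the naive T cell library. They were selected on measured values from a deposited table of 37752 gene areas. The rule asked for a length of at least 3000 bp, 5hmC of at least 1.3 times the naive value in each of the Th1, Th2, iTreg and Th17 libraries, a mean of at least 10 over those 4, and an IgG control signal under 5. The table had 22956 gene areas of that length, and 15619 of them also met the mean and IgG conditions. The 882 members were 3.84% of the former and 5.65% of the latter. The opposite pattern, with naive at least 1.3 times each of the 4 and a naive value of at least 10, was found in 5688 gene areas.

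The assay was DNA immunoprecipitation followed by sequencing: DNA was sheared, made single-stranded and captured with an antibody, and the captured fragments were read. Naive T cells and cells of the Th1, Th2, iTreg (induced regulatory) and Th17 types each gave 1 library with an antibody against 5-methylcytosine (5mC) and 1 with an antibody against 5hmC. Th17 cells also gave 1 library with control IgG and 1 of input DNA, which makes 12 libraries. The series' design text names CD2(Cre)Tet2(f/f) mice, in which Cre driven from CD2 sequences deletes the loxP-flanked Tet2 gene, and wild-type littermates of mixed background. The genotype, the age of the animals, the duration of the culture and any pooling are not given for the single libraries. Values are mean signals over a whole gene area on a scale rounded to 0.1, so levels can be compared between genes per length. With 1 library per group there is no replicate check, cell types could not be tested against each other, and every difference is one between 2 libraries. In bulk DNA, a mark on more cells and more of the mark per cell cannot be told apart.

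5hmC is made from 5mC by the Tet dioxygenases, and it is both an intermediate of demethylation and a stable mark of gene bodies and enhancers. When naive CD4 T cells differentiate, activation and cytokines switch on one lineage's factors, such as Tbx21 in Th1 and Gata3 in Th2 cells, and a set of activation genes that the lineages share. The antibody against 5hmC reads the mark over a gene and says nothing of the strand or of which cytosine holds it.

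Labels were checked on lineage genes that are not members. Tbx21, the Th1 master regulator, was highest in the Th1 library at 54.8 against 18.4 to 34.9 elsewhere, and Il4, the Th2 cytokine, was highest in the Th2 library at 82.6 against 20.2 to 26.2. Il17a and Il17f, the cytokines that define Th17 cells, read 31.3 and 32.8 in the library labelled iTreg but 8.8 and 5.3 in the library labelled Th17. Foxp3, the defining factor of regulatory T cells, was highest in the library labelled Th17 at 30.9 and read 25.3 in the library labelled iTreg. It also read 24.2 in naive cells and 4.5 in the IgG library, so it separates the 2 labelled libraries only weakly. These 5hmC values go against both labels, mainly through Il17a and Il17f, so both libraries are called by their label below. Membership is the same whichever of the 2 libraries holds which cells, because the rule treats the 4 libraries alike. Without both of them, 1505 gene areas met the rule, and 850 of the 882 members were among these.

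Where a promoter could be matched, members tended to have fewer CG dinucleotides there than the gene areas that met the length, mean and IgG conditions. A RefSeq promoter window of 300 bases (250 before to 50 after the start, assembly GRCm38.p6) was found for 543 of the 882 members. The following 4 show the range, each 5′ to 3′ on the gene's strand with every CG in capitals: Nfil3, the marker of the set, is at the CG-rich end with 54, while the windows of Il22, Lcn13 and Gzme, 3 members whose 5hmC was low in naive cells, hold 4, 2 and 0. They lie at chr13:52980990-52981289 (minus strand), chr10:118204714-118205013 (plus), chr2:25699824-25700123 (plus) and chr14:56120576-56120875 (minus), in that order.
Nfil3: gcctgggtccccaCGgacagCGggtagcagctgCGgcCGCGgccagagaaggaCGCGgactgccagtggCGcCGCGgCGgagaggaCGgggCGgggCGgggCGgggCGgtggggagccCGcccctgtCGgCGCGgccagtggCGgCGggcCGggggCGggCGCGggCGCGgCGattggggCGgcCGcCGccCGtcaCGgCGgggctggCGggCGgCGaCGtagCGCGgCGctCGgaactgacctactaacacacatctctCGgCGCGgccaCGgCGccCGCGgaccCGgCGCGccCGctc
Il22: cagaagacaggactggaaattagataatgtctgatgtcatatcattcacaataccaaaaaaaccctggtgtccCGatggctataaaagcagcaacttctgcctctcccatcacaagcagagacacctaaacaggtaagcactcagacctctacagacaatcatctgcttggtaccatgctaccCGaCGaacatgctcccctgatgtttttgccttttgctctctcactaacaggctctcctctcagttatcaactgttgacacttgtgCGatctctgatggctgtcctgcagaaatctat
Lcn13: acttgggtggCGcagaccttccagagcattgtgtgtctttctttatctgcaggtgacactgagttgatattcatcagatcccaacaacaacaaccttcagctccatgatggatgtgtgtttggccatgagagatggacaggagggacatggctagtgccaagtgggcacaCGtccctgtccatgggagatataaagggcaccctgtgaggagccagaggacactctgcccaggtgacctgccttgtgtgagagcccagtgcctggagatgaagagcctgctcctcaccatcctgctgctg
Gzme: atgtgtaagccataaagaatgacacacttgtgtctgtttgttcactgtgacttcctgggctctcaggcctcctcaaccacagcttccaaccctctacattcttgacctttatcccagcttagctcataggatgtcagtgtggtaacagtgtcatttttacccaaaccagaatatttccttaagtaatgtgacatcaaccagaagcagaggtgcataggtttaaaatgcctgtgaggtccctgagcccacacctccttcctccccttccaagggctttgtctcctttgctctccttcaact
The median window of the members held 7 CG, against 18 in the 10930 matched gene areas that met the length, mean and IgG conditions and 21 in the 4252 with the opposite pattern. Over the 15095 matched gene areas of the minimum length the median was 16. The median over all 27025 promoters of the reference table, a wider base than the gene areas the rule could choose from, was also 7. At most 5 CG were found in 46.6% of the members' windows, in 20.3% of those that met the conditions and in 12.1% of those with the opposite pattern. At least 15 CG were found in 30.9%, 58.1% and 69.9%. Over all promoters of the reference table, 43.6% had at most 5 CG and 35.2% at least 15. Read the other way, 253 of 2216 gene areas with at most 5 CG were members (11.4%), 122 of 2368 with 6 to 14 (5.15%) and 168 of 6346 with at least 15 (2.65%). The members therefore differed in promoter class from the gene areas that met the conditions and, by the median, from all of the minimum length. They lay near all promoters of the reference table, which is not the base the members came from. Promoter class is a property that the rule did not use. Nfil3 was one of 7 members with 50 or more CG.

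**Figure D1:**
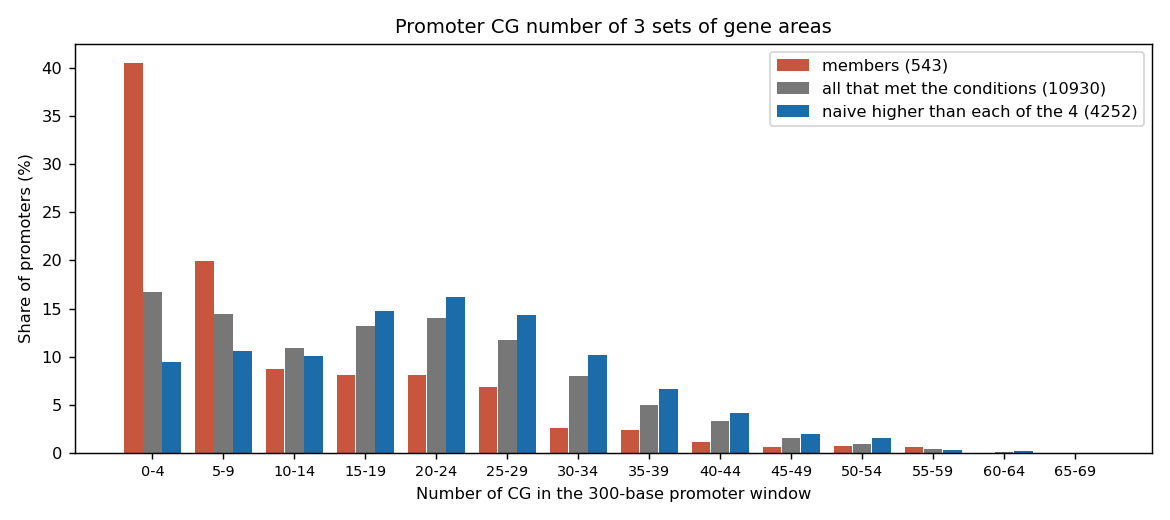
Share of promoters (y axis, percent) by the number of CG dinucleotides in the 300-base window (x axis) for members, for all gene areas that met the length, mean and IgG conditions, and for gene areas with the opposite pattern. The bin of 0 to 4 CG holds 40.5% of the members' promoters and 16.7% of those that met the conditions.

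Short motifs were counted in the same windows on both strands, as a description of letters and not of binding. TTATGTAA, the element that Nfil3 and its relatives recognise, was in 8 of 543 members' windows (1.47%), in 0.668% of those that met the conditions and in 0.958% of all promoters. The named genes among the 8 were Ces1a, Chi3l1, Lgsn, Olfm4, Per3 and Scn1a. TGACTCA, the element of AP-1 and Batf, was in 32 members' windows (5.89%, against 4.36% and 5.17%). AGATAA, which Gata factors recognise, was in 66 (12.2%, against 7.58% and 11.4%). TGACGTCA, the CREB element, which holds a CG, was in 2 (0.368%, against 2.46% and 1.85%). None of these words contains another. The members' shares lay nearer to those of all promoters than to those of the gene areas that met the conditions for the AP-1 and Gata elements, and below both for the CREB element.

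The values that chose the members are given as a description. Their median 5hmC was 12.65 in the naive library and 21.25, 22.2, 21.9 and 22.15 in the Th1, Th2, iTreg-labelled and Th17-labelled libraries. Over all gene areas that met the conditions the order was the reverse, with 22.2 in the naive library and 17.2, 17.9, 17.5 and 15.5 in the other 4. The members thus started from a lower naive level and ended at a higher one. The smallest of a member's 4 ratios to naive had a median of 1.46, and it was at least 1.5 in 375 members and at least 2 in 41. The mean of the 4 was at least 2 times naive in 165. All 4 ratios of a member share the same naive value. Just inside the threshold, Scn10a read 12.0 in naive cells and 15.6 in its lowest differentiated library, Bend5 27.3 and 35.5, and Fhad1 27.3 and 35.5. Just outside, Ngfr read 36.7 and 47.7, Gnrhr 7.7 and 10.0, and Dcaf12l1 68.0 and 88.3.

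**Figure D2:**
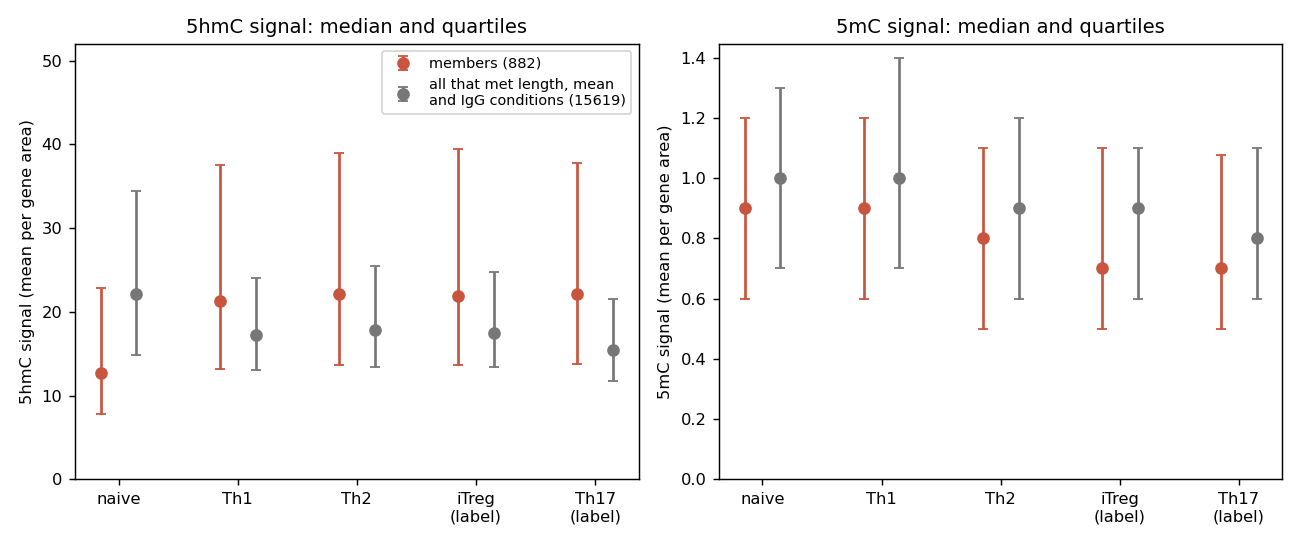
Median (points) and quartiles (bars) of the signal by library (x axis) for the 882 members and the 15619 gene areas that met the length, mean and IgG conditions, with 5hmC on the left and 5mC on the right (y axes, mean signal per gene area). Members sit below the other gene areas in naive 5hmC and above them in the 4 differentiated libraries, while their 5mC medians lie at or below 0.9 in every library.

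Nfil3, the marker of the set, encodes a basic leucine zipper repressor that acts in NK cell development, in the circadian clock and on T helper cytokine genes. Its gene area, chr13:53062577-53076407 on mm9, read 15.0 in naive cells, 69.4 in Th1, 103.0 in Th2, 50.2 in the library labelled iTreg and 26.8 in the library labelled Th17. The 4 differentiated values were spread widely, from 1.79 to 6.87 times naive, with Th2 at the top. The smallest ratio was larger in the transcription factor members Snai2 (2.41), Camta1 (2.12) and Bhlhe40 (1.89). The IgG signal was 0.5 in Nfil3, 1.2 in Camta1, 3.3 in Bhlhe40 and 3.6 in Snai2. In Snai2 this is close to the naive 5hmC of 4.4, so its ratio rests on a naive value near the control. Nfil3 5mC read 1.1 in naive cells and 1.1, 0.9, 1.0 and 1.1 in the 4 others in the same order, so no value was more than 2 steps of rounding from naive.

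Nfil3 was 1 of 3 members among 38 basic leucine zipper genes that met the conditions (7.9%, against 5.65% of all). Atf3, a stress-induced factor of the same class, read 22.8 in naive cells and 34.3, 42.1, 32.5 and 41.1 in the Th1, Th2, iTreg-labelled and Th17-labelled libraries. Fosb, an AP-1 subunit, read 10.3 and then 24.7, 27.9, 21.4 and 14.6. The order in Fosb was the same as in Nfil3, with Th2 first and the library labelled Th17 last. The opposite pattern was found in 19 of the 43 genes of this list that have the minimum length, against 5688 of 22956 of all. Fos itself read 20.9 in naive cells against 7.5 to 15.7 elsewhere, and Batf, the AP-1 partner of T helper cells, read 41.2 and 17.4 to 55.1. Batf3 was not a member, although it read 13.5 in naive cells and 49.5 and 55.9 in Th1 and Th2, because the libraries labelled iTreg and Th17 stayed at 15.0 and 15.7.

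Genes of the circadian clock and nuclear receptors held 5 members among 41 that met the conditions (12.2%, against 5.65% of all). Bhlhe40, a clock repressor that also controls cytokine output in T cells, lies at chr6:108610622-108616918 and read 19.6 in naive cells. It read 53.1 in Th1, 75.3 in Th2, 37.0 in the library labelled iTreg and 37.5 in the library labelled Th17. Per3, a period gene of the clock, read 5.9 and then 11.8, 12.4, 11.6 and 8.0 in the same order. Arntl2, a partner of the Clock protein, read 35.1 and then 52.3, 52.9, 64.1 and 67.5, so here, unlike in Bhlhe40, the libraries labelled iTreg and Th17 were above Th1 and Th2. The other 2 were Nr0b2, an orphan receptor of bile acid control, at 41.0 and then 69.7 to 77.9, and Hnf4a, a liver factor, at 14.7 and then 19.5 to 25.7. The opposite pattern was found in 13 of the 57 genes of this list that have the minimum length, near the 5688 of 22956 of all.

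The cytokine list held 3 members among 41 (7.3%), and the cytokine receptor list 1 among 49 (2.0%), against 5.65% of all that met the conditions. Il24, an IL-10 family cytokine made by Th2 cells, read 12.0 in naive cells and 26.7, 37.6, 22.2 and 16.1 in the Th1, Th2, iTreg-labelled and Th17-labelled libraries. Its neighbours of the same family on chromosome 1 were not members. Il20 read 19.3 and then 21.4 to 32.2, Il19 read 14.4 and then 8.5 to 14.0, and Il10 read 12.6 and then 29.3, 51.7, 24.2 and 8.1. Il22, the IL-10 family cytokine that acts on epithelia and is counted with Th17 products, read 10.0 in naive cells. Its 4 other values were 25.0, 24.0, 17.6 and 16.1, so the Th1 and Th2 libraries were above those labelled iTreg and Th17. Ifng, on the same chromosome, was not a member at 10.0 and then 8.9 to 22.6.

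Tnfsf14, the ligand LIGHT of the TNF family, read 48.7 in naive cells and 113.3, 123.8, 94.6 and 66.0 in the others. No gene among 19 TNF receptors that met the conditions was a member. Csf2rb, the shared beta chain of the IL-3, IL-5 and GM-CSF receptors, read 7.1 and then 11.2 to 13.3, and its gene area overlaps that of Gm20024, another member. Among 21 chemokine and chemokine receptor genes, 2 were members (9.5%, against 5.65% of all that met the conditions). Ccl5, a T cell chemokine, lies at chr11:83339279-83344019 and read 13.0 in naive cells and 42.8, 41.6, 43.9 and 27.9 in the others. In the same chemokine cluster, Ccl6 and Ccl9, and Ccl3 and Ccl4, which are shorter than 3000 bp, were not members and read between 8.1 and 17.1 in the 4 differentiated libraries. Ccl24, an eosinophil attractant, read 11.4 and then 18.3 to 19.9, with the 4 libraries within a narrow range.

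Signature genes of the single lineages gave 0 to 2 members per list. The Th1 list gave 2 of 18 (11.1%, Ccl5 and Bhlhe40), the Th2 list 2 of 16 (12.5%, Il24 and Nfil3), the Th17 list 1 of 21 (4.8%, Il22) and the iTreg list 0 of 19, against 5.65% of all. Among 21 genes of naive T cells, such as Lef1 at 127.9 in naive cells and 22.2 to 40.9 elsewhere, 0 were members and 20 had the opposite pattern. That pattern was found in 5688 of all 22956 gene areas of the minimum length. The lists of follicular helper and inhibitory receptor genes (17), of amino acid and glucose uptake and glycolysis (25) and of Tet and Dnmt enzymes with their partners (17) held 0 members. The cell cycle list gave 1 of 30, Cdkn1a, which encodes the cyclin-dependent kinase inhibitor p21. Cdkn1a read 39.7 in naive cells and 67.7, 113.6, 52.9 and 65.3 in the others, with Th2 standing apart.

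**Figure D3:**
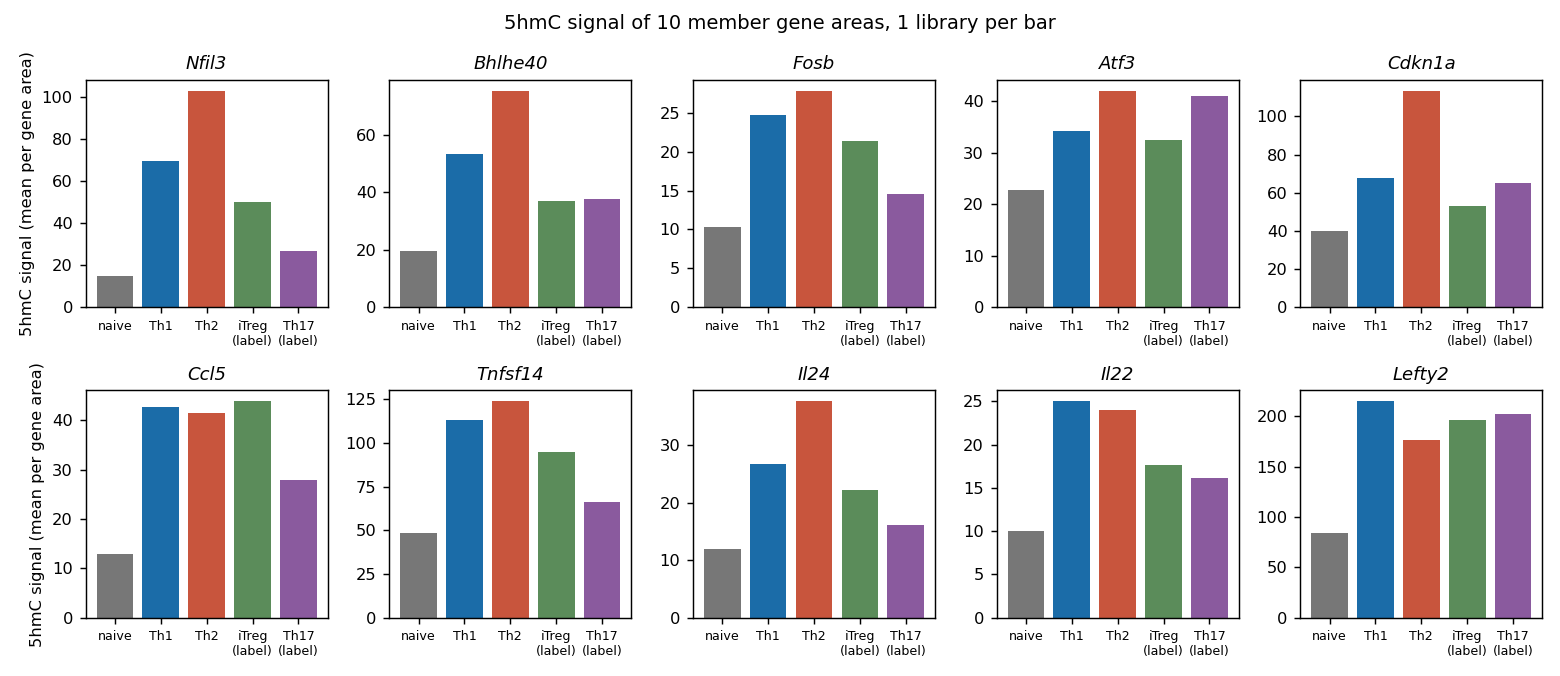
5hmC signal (y axis, mean per gene area) of 10 members in 5 libraries (x axis), 1 bar per library and no error because each group is 1 library. Nfil3, Bhlhe40, Cdkn1a and Il24 are highest in the Th2 library, while Ccl5 and Lefty2 are nearly level across at least 3 of the 4 differentiated libraries.

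Of 26 genes of cytotoxic granules and NK receptors that met the conditions, 4 were members (15.4%, against 5.65% of all). Of the 40 on this list with the minimum length, the same 4 were members, against 882 of 22956 of all (3.84%). Gzme and Gzmd encode serine proteases of killer cell granules and lie next to each other on chromosome 14. Gzme read 4.4 in naive cells and 14.4, 14.1, 9.2 and 11.1 in the others, and Gzmd read 5.3 and then 11.6, 9.8, 10.0 and 12.8. They are close copies, so how reads that fit both were counted bears on these values and is not stated here. The other granzyme genes of that cluster were not members: Gzmb read 18.9 and then 14.2 to 35.1, and Gzmc 11.5 and then 10.7 to 18.9. Klrc1, which encodes the inhibitory receptor NKG2A, read 4.5 and then 16.7, 9.6, 12.2 and 8.0. Klra10, a Ly49 receptor of another near-identical family, read 4.8 and then 6.5 to 13.4.

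Lists of other tissues were included because T cells transcribe few of these genes. Neuronal and synaptic genes gave 6 members of 37 (16.2%, against 5.65% of all that met the conditions). Of the 69 neuronal genes of the minimum length, the same 6 were members, against 882 of 22956 of all (3.84%). Muscle and matrix genes gave 2 of 32, erythroid genes 1 of 7, germline genes 1 of 11, liver genes 1 of 12, B cell genes 1 of 12 and myeloid genes 0 of 16. The neuronal members were Gabrb2 (a GABA receptor subunit), Kcnma1 (a calcium-gated potassium channel), Robo2 (a Slit receptor), Scn1a (a sodium channel), Reln (reelin) and Syn2 (a synaptic vesicle protein). All 6 were low, at 5.5 to 9.5 in naive cells against 7.7 to 18.7 in the differentiated libraries. Scn1a read 6.3 in naive cells and 4.3 in the IgG library. Ryr3, a calcium release channel, read 7.2 and then 10.4 to 14.8. Actc1, cardiac actin, read 10.5 and then 15.0, 17.0, 28.0 and 17.6. Cd22, an inhibitory lectin of B cells, read 32.0 and then 49.0 to 57.4, Ank1, the ankyrin of red cells, 26.1 and then 34.7 to 46.5, and Mael, a factor of the germline piRNA pathway, 11.7 and then 15.4 to 21.6. Over the genes of each list that met the conditions, the median log2 difference of the mean of the 4 from naive was 0.24 for neuronal, 0.20 for myeloid, 0.20 for liver, 0.18 for muscle and matrix, 0.10 for germline, 0.01 for B cell and -0.35 for erythroid genes, against -0.32 over all gene areas that met the conditions. All of these lists but the erythroid one thus lay above the median of all, whether or not they held members. The conditions ask for a mean of at least 10 in the differentiated libraries and set no limit on naive, which can raise these medians. They kept 37 of 69 neuronal, 12 of 21 liver, 11 of 24 germline and 7 of 12 erythroid genes of the minimum length. Of muscle and matrix genes they kept 32 of 43, of myeloid 16 of 20 and of B cell 12 of 15, against 15619 of 22956 of all. The part of this in the medians was not tested.

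By gene name, the share of members ran from 0% to 30.8%, against the 5.65% background. Cadherins and protocadherins gave 20 of 65 (30.8%), of which 14 come from a single locus described below. Olfactory, vomeronasal and trace amine receptors gave 13 of 49 (26.5%), defensins 4 of 16 (25.0%), keratins 8 of 34 (23.5%), serpins 5 of 28 (17.9%), cytochromes P450 11 of 62 (17.7%) and UDP glucuronosyltransferases and sulfotransferases 3 of 18 (16.7%). Metalloproteases of the Adam, Adamts and Mmp families gave 9 of 56 (16.1%), C-type lectins and killer lectin receptors 6 of 41 (14.6%) and adhesion and orphan G protein-coupled receptors 8 of 64 (12.5%). Potassium, sodium and calcium channels gave 14 of 118 (11.9%), regulators of G protein signalling 2 of 17 (11.8%) and genes named as neurotransmitter receptors 8 of 69 (11.6%). The last pattern also took in Adrbk2, a receptor kinase. Collagens, with 2 of 31 (6.5%), and interleukins and their receptors, with 4 of 64 (6.2%), lay near the background. Below it, ribosomal proteins gave 0 of 49, microRNA genes 0 of 1, CD antigens 2 of 77 (2.6%), Tmem genes 4 of 150 (2.7%), homeobox factors 2 of 69 (2.9%), zinc finger proteins 9 of 286 (3.1%) and solute carriers 13 of 301 (4.3%). These are counts with no test, and they depend on the base. Of all gene areas of the minimum length, members were 13 of 285 in the olfactory, vomeronasal and trace amine group, against 882 of 22956 (3.84%). The same counts were 4 of 26 for defensins, 8 of 52 for keratins, 5 of 66 for serpins, 11 of 119 for cytochromes P450 and 20 of 100 for cadherins. On this base the olfactory group lay near the share of all, and the others named here above it. Several of the families, such as the olfactory receptors and the cytochromes P450, hold tandem copies of like sequence, in which the counting of shared reads is not known.

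**Figure D4:**
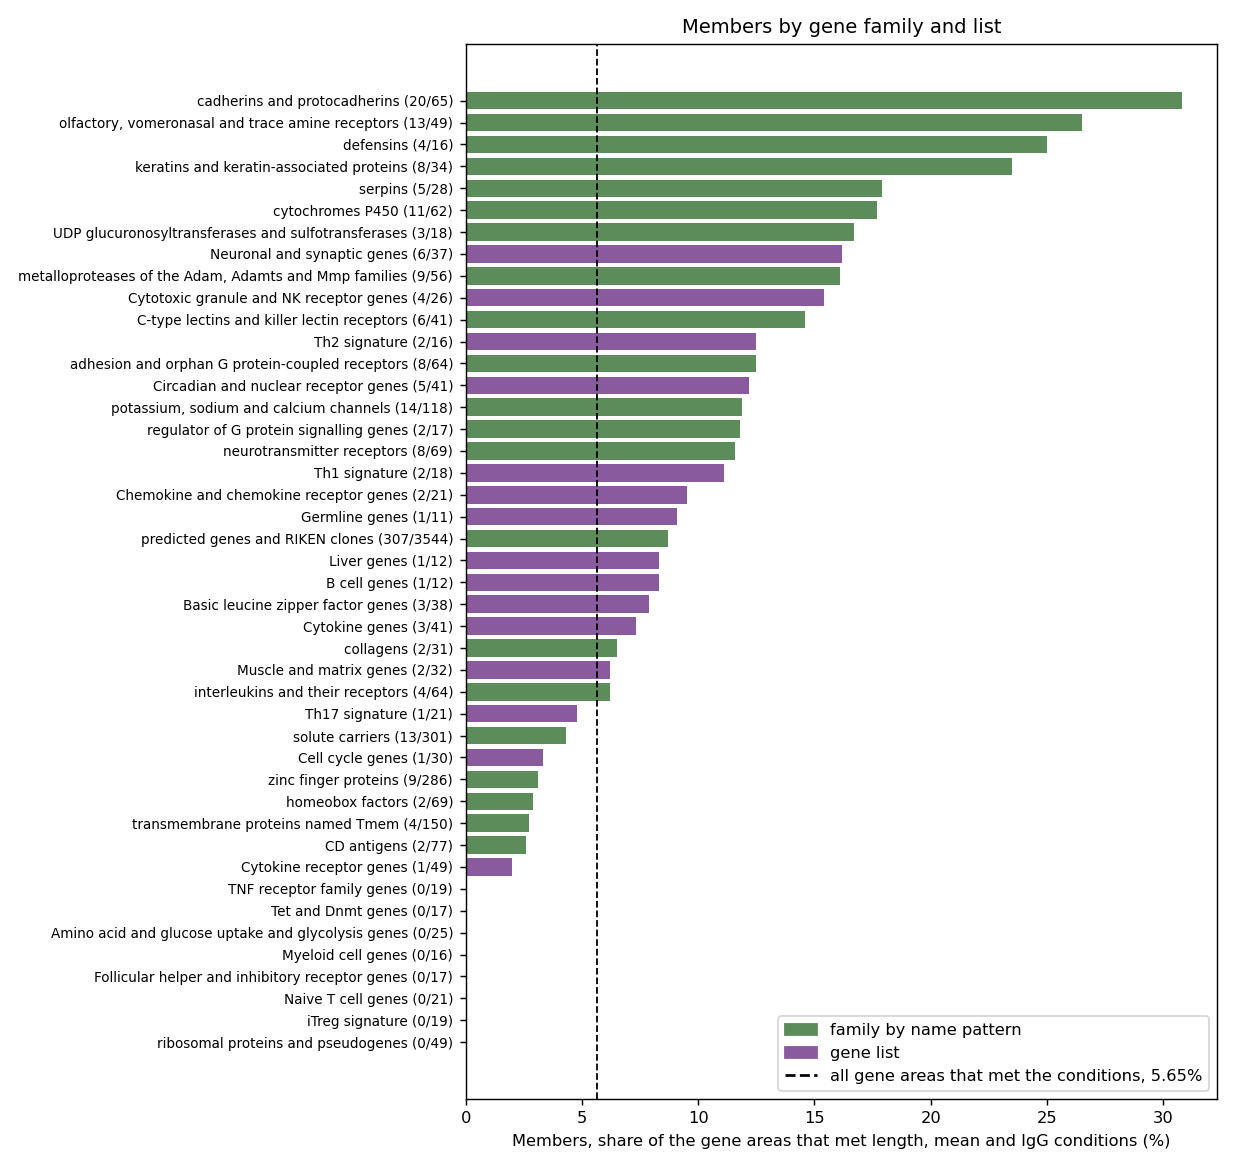
Members as a share (x axis, percent) of the gene areas that met the length, mean and IgG conditions, for each name family and gene list with at least 10 such gene areas (y axis, members over gene areas in brackets). The dashed line is the 5.65% over all of them, and cadherins stand highest at 30.8%.

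Predicted genes and RIKEN clones made up 307 of the 882 members, 8.7% of the 3544 that met the conditions. Of the members, 761 were matched in the RefSeq gene list. Protein-coding genes were members in 632 of 12903 cases (4.9%), long noncoding RNA genes in 89 of 918 (9.7%) and pseudogenes in 30 of 263 (11.4%). The share by chromosome ran from 3.4% on chromosome 11 to 8.9% on chromosome 18, with 7.4% on the X. Chromosome 18 holds the protocadherin locus, which alone gave 14 of its 39 members. Median length was 19444.5 bp among members and 20217 bp among those that met the conditions, and input signal was 1.9 against 2.0. The IgG median was 1.1 in both. With the IgG limit at 2 instead of 5, 691 of the 882 members and 12262 of the 15619 gene areas that met the conditions remained.

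The 882 members fell into 786 loci when members at most 50 kb apart were joined. Of these loci 710 held 1 member, 68 held 2 and 8 held 3 or more, and 49 members overlapped another member, so they are not independent regions. The largest locus was the protocadherin alpha cluster, chr18:37089938-37347314, whose 14 gene areas all overlap and end within 4 bp of each other. Protocadherins of this cluster are adhesion proteins of neurons that are chosen from alternative first exons. All 14 were members, with medians of 17.3 in naive cells against 30.7, 36.25, 25.7 and 26.7 in the Th1, Th2, iTreg-labelled and Th17-labelled libraries. Because the areas share most of their bases, they amount to 1 observation: the shortest, Pcdhac2, read 18.1 and then 30.5, 38.4, 27.5 and 30.3. None of the neighbouring protocadherin beta or gamma gene areas was a member. However, 5 of the 22 beta areas also read at least 1.3 times naive in all 4 libraries, at low levels of 1.8 to 3.1 in naive cells against 3.1 to 11.0 elsewhere. Of these, Pcdhb5, Pcdhb9 and Pcdhb18 were kept out by the mean of 10 alone, and Pcdhb2 and Pcdhb10 are also shorter than 3000 bp. Pcdhb16 read 4.2 in naive cells against 4.3 to 9.4 elsewhere, and Pcdhga1, of the gamma cluster, read 14.0 and then 12.0 to 14.6.

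A keratin locus on chromosome 15, 101537500 to 101632762, held 4 members that do not overlap. Krt5, the keratin of basal epithelium, read 43.5 in naive cells against 69.3 to 83.7 elsewhere, Krt71 38.0 and then 57.9 to 67.6, Krt72-ps 13.0 and then 22.1 to 36.5, and Krt73 6.8 and then 9.0 to 12.6. On chromosome 2, Wfdc8, Wfdc6b and Wfdc11, genes of small protease inhibitors, read 19.0 to 25.9 in naive cells against 25.5 to 59.0 elsewhere. On chromosome 4, Megf6, Arhgef16 and Prdm16, a factor of brown fat and blood stem cells, lay side by side with 11.7 to 29.8 in naive cells against 18.4 to 45.9 elsewhere. Shq1 and Gxylt2 shared a locus on chromosome 6 with a predicted gene, and Gxylt2 read 13.3 and then 27.7, 26.6, 33.1 and 20.7. The remaining 3 loci consisted of Leprel1 with 2 overlapping predicted genes on chromosome 16 and of predicted genes on chromosomes 8 and 14.

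Some pairs were neighbours of related function. Abcg5 and Abcg8 encode the partner subunits of a sterol transporter and are transcribed away from a shared start region. Abcg5 read 30.1 in naive cells against 60.3 to 69.1 elsewhere, and Abcg8 12.6 and then 19.3 to 24.5. S1pr3, a receptor for sphingosine-1-phosphate, read 21.5 and then 86.1, 45.9, 44.9 and 67.4, with Th1 highest, while Shc3 beside it read 12.5 and then 18.2 to 23.7. Has2, a hyaluronan synthase, and its antisense gene Has2as overlap. Camta1, a calmodulin-binding transcription activator with a gene area of 802233 bp next to Per3, read 71.7 and then 152.3, 167.6, 152.0 and 154.4. Its 4 differentiated values lay close together, on a level near 2 times naive.

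Apart from predicted genes and RIKEN clones, most of the 12 members with the largest smallest ratio had low naive values. Lcn13, a lipocalin, read 2.5 in naive cells and 15.4, 26.1, 9.2 and 11.4 in the others, or at least 3.68 times naive in each. Awat2, a lipid acyltransferase of skin, read 2.7 and then 8.0 to 11.6, and Snai2, a factor of epithelial to mesenchymal transition, 4.4 and then 10.6 to 15.7. The IgG signal was 3.1 in Lcn13, 1.6 in Awat2 and 3.6 in Snai2, so naive 5hmC lay near or below the control in Lcn13 and Snai2. Pdzk1ip1, Ermn, Syce1, Clptm1l, Lcn11 and Chi3l1 completed the low group, with naive values of 4.1 to 10.9. Ccl5, Camta1 and Lefty2 were the others of the 12. Lefty2, a secreted inhibitor of nodal signalling at chr1:182823249-182829233, stood out by its level: it read 84.1 in naive cells and 215.0, 176.5, 196.6 and 202.6 in the others. In the 41 members of at least 2 times naive in all 4 libraries, the median naive value was 5.4 and the median length 7637 bp, against 13.8 and 23429 bp in the 507 members with a smallest ratio under 1.5. The highest 5hmC of any member was at Smo, the Hedgehog signal transducer, with 418.7 in naive cells against 624.3 to 688.3 elsewhere. Its input signal was also the highest of the members at 12.1, against a median of 1.9, and the part of this in its 5hmC was not tested.

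The spread of the 4 differentiated libraries within a member is limited by the rule, which asks all 4 to be high, so it is given as a description. The highest was within 1.3 times the lowest in 413 members (46.8%, against 24.8% of the gene areas that met the conditions). It was within 1.5 times in 687 (77.9%, against 53.5%) and at least 2 times the lowest in 31 (3.51%, against 12.6%). The library labelled Th17 was the highest of the 4 in 270 members (30.6%), Th2 in 268 (30.4%), the library labelled iTreg in 210 (23.8%) and Th1 in 123 (13.9%), with 11 ties. Over all gene areas that met the conditions these shares were 15.5%, 33.4%, 28.8% and 20.9%. The order depends on the scaling between libraries: with median-ratio scaling the library labelled Th17 was the highest in 462 of the 882 (52.4%) and Th2 in 187 (21.2%), against 26.9% and 27.8% of all. The library labelled Th17 was also the lowest of the 4 in median over the gene areas that met the conditions, at 15.5, while among the members its median was level with the rest at 22.15. Between Th1 and Th2, whose labels the lineage genes bear out, Th2 was at least 1.3 times Th1 in 104 members (11.8%) and Th1 at least 1.3 times Th2 in 46 (5.22%). In all gene areas that met the conditions these shares were 18.1% and 10.1%. The rule used every value behind these shares, so nothing is read from their distance to the members.

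Single members stood out in 1 lineage. An excess of at least 1 on the log2 scale over the mean of the other 3 differentiated libraries (0.2 added to each value) was found in 6 members for Th2, 1 for Th1, 1 for the library labelled Th17 and 0 for the library labelled iTreg. These are 0.68%, 0.113%, 0.113% and 0% of the members, against 0.698%, 0.205%, 0.109% and 0.23% of all gene areas that met the conditions. Those of Th2 included Nfil3, Lcn13, Fam198a, Stc2 (a secreted glycoprotein) and Gm10510. Fam198a read 19.8 in naive cells and 28.1, 66.0, 29.0 and 32.7 in the others. For Th1 it was Dnm3os, a noncoding RNA gene that hosts microRNAs, at 4.0 and then 16.5, 6.1, 11.8 and 5.8. Defb45 and Klrc1 followed with excesses of 0.88 and 0.74. For the library labelled Th17 it was Il1f5, which encodes the antagonist of the IL-36 receptor, at 5.9 and then 9.9, 8.1, 11.5 and 26.3. Apoc4 (66.7 against 33.6 to 41.3) and Ceacam15 (19.3 against 9.5 to 14.5) followed. In the library labelled iTreg the largest excesses were in Mmp12, a macrophage elastase, at 21.1 against 8.7 to 13.2, P2ry4 at 19.3 against 9.7 to 10.0, and Actc1. Lcn13, Dnm3os, Defb45, Klrc1, Il1f5, Mmp12, Ceacam15 and P2ry4 have naive 5hmC of 2.5 to 7.1, so their excess rests on few units of signal. In Lcn13 the IgG signal of 3.1 was above the naive 5hmC of 2.5.

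5mC was not used to choose the members and was measured in separate libraries. Its medians were low in every library, at a few times the rounding step, though single members read up to 11.2 in naive cells. The members' medians were 0.9 in naive cells against 0.9, 0.8, 0.7 and 0.7 in the Th1, Th2, iTreg-labelled and Th17-labelled libraries. Gene areas that met the conditions had medians of 1.0, 1.0, 0.9, 0.9 and 0.8 in the same order. In both sets these lay below the medians of the IgG library (1.1 in both) and of the input library (1.9 and 2.0). The scaling between libraries is not given, so how far 5mC stood above background was not tested. The 5mC ratios below carry this limit. The median log2 difference of the mean of the 4 from naive was -0.15 in the members, -0.08 in all that met the conditions and -0.03 in those with the opposite 5hmC pattern. By library, the members' median difference was 0.0 in Th1, -0.19 in Th2, -0.21 in the library labelled iTreg and -0.21 in the library labelled Th17. Over all gene areas that met the conditions it was 0.0, -0.09, -0.15 and -0.17 in the same order, so much of the fall was shared by the background. Median-ratio scaling would raise the 5mC libraries labelled iTreg and Th17 by 0.25 and 0.24 against naive on this scale.

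Naive 5mC was at least 1.3 times the mean of the 4 in 223 members, or 25.3%, against 16.5% of the gene areas that met the conditions and 21.8% of all of the minimum length. The mean of the 4 was at least 1.3 times naive in 39 members, or 4.42%, against 6.48% and 7.62%. All 4 libraries were below naive in 275 members (31.2%, against 22.2% of those that met the conditions) and above it in 28 (3.17%, against 6.77%). In the gene areas with the opposite 5hmC pattern, the same 4 shares were 10.8%, 10.2%, 15.7% and 10.9%. By any amount, the mean of the 4 was below naive in 647 members (73.4%, against 61.7% of those that met the conditions) and above it in 198 (22.4%, against 33.0%). In the values as deposited, the mean 5mC of the 4 was therefore below naive in most members, as in most gene areas that met the conditions. Naive was at least 1.3 times that mean in 223 members. In 620 (70.3%, against 77.1%) the mean was within 1.3 times of naive in either direction. This rests on the mean of the 4, as the members' median difference in Th1 alone was 0.0. It also depends on scaling: with median-ratio scaling the 223 became 119 (13.5%, against 7.13%).

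The share moved with the naive 5hmC level, which the rule does use. Among gene areas with naive 5hmC under 10, naive 5mC was at least 1.3 times the mean of the 4 in 34.0% of 335 members and in 31.4% of 1157 that met the conditions. From 10 to 20 the shares were 24.7% of 283 and 21.3% of 5537, and from 20 up 14.8% of 264 and 11.5% of 8925. Within each class of naive 5hmC the distance between members and background was thus 2 to 4 percentage points, less than that of the pooled shares. With naive 5mC of at least 1, where a step of rounding weighs less, the shares were 23.3% of 382 members and 17.3% of 8013. By promoter, they were 31.2% against 22.8% at up to 5 CG, 13.9% against 15.9% at 6 to 14 CG and 21.4% against 11.9% at 15 CG or more. The part of naive 5hmC level and of rounding in the pooled difference was not tested further.

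**Figure D5:**
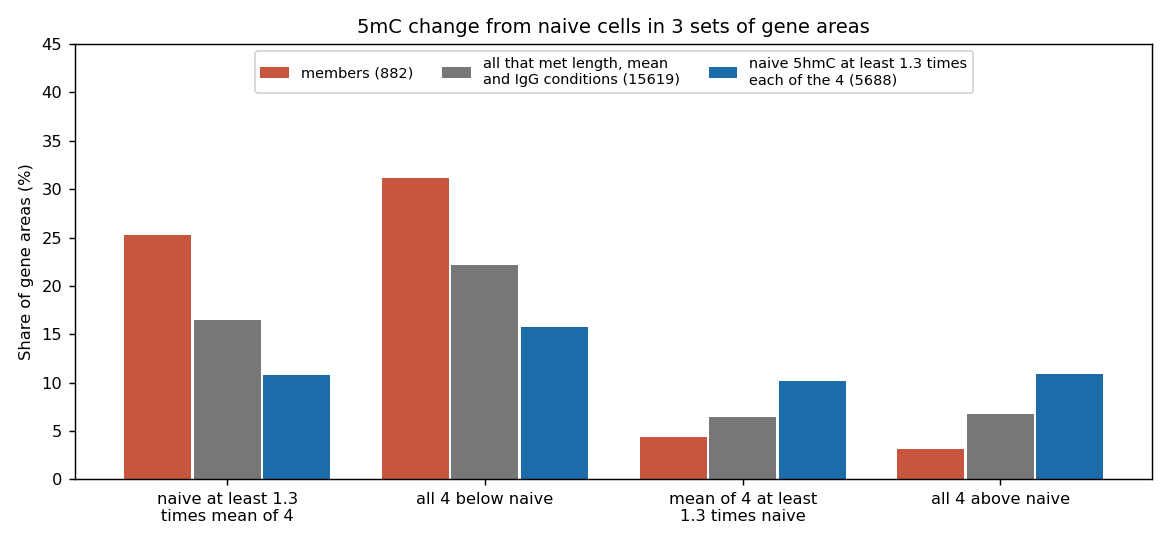
Share of gene areas (y axis, percent) that met each of 4 rules on 5mC (x axis) among members, all gene areas that met the length, mean and IgG conditions, and those with the opposite 5hmC pattern. Naive 5mC was at least 1.3 times the mean of the 4 in 25.3% of members and in 10.8% of the gene areas with the opposite pattern, with no error bars because each value comes from 1 library per cell type.

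Single members showed the range. Among members with a mean 5mC of at least 0.5, low values relative to naive were at P2ry4, whose 5mC read 1.4 in naive cells and then 0.9, 0.7, 0.6 and 0.7, Speer8-ps1 with 1.0 and then 0.4 to 0.6, and Btnl3, a butyrophilin-like gene, with 1.3 and then 0.6 to 0.8. High values relative to naive were at Klk1b19-ps with 0.4 and then 0.4 to 0.9, Rhou, a small GTPase, with 1.1 and then 2.1, 1.8, 1.2 and 1.8, and Cmtm2b with 0.6 and then 0.7 to 1.1. Lcn13 read 1.4 in naive cells and 0.9, 1.1, 0.7 and 0.7 in the others, and Il22 read 0.7 and then 0.5, 0.3, 0.4 and 0.3. Ccl5 went the other way with 0.7 and then 0.9, 0.8, 1.0 and 0.9, and Cdkn1a with 1.1 and then 1.2 to 1.5. Bhlhe40 and Fosb, like Nfil3, stayed within 3 steps of rounding of their naive 5mC of 0.8. Of the 12 members with the largest smallest 5hmC ratio, the mean 5mC of the 4 was below naive in 9, level with it in Chi3l1 and above it in Ccl5 and Snai2. In the 41 members of at least 2 times naive in all 4 libraries, naive 5mC was at least 1.3 times the mean in 14 (34.1%). The mean was at least 1.3 times naive in 5 of them (12.2%). The median naive 5hmC of these 41 was 5.4, and gene areas that met the conditions with naive 5hmC under 10 gave 31.4% and 6.74%.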

How the data were processed

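The data were signal values of 12 DNA immunoprecipitation libraries over mouse gene areas. Each signal value, as deposited, is an average over 1 gene area, rounded to 0.1. CASAVA 1.7.0 and the genome build mm9 are named per the submitters' processing notes. Read depth, counting, duplicate removal and how libraries were scaled: not given in the sources used here, so no counting interval could be computed. Whether coordinates count from 0 or 1 and whether gene areas reach beyond the gene are likewise not given.

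Values were used as deposited, in Python 3.11.15 with pandas 2.3.3. Members and the 23 gene lists and 23 name patterns were chosen with earlier results of these data known. Each is described by counts and medians beside the gene areas that met the length, mean and IgG conditions. Log2 values had 0.2 added. Named genes are Nfil3, the 12 with the largest smallest ratio to naive, 3 per library with the largest ratio and 3 with the largest excess, list members, members within 50 kb of each other (loci of 3 or more and selected pairs, the pairs picked after their values were seen), the 4 extremes of 5mC either way, and 3 on each side of the threshold. A few genes that this rule names are not reported here. Smo, Stc2 and Gm10510 and the members with a motif were named after their values were seen. One symbol, BB114814, stands on 2 member rows. Alternatives changed the fold, length, mean and IgG limits, the scaling between libraries, the pseudocount and the libraries left out.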

Additional observations from a re-analysis of the deposited data

How the results depend on the processing

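With 1 library per group, no paired analysis was possible because replicates do not exist. The number of members was 1310 at a fold of 1.2, 375 at 1.5 and 41 at 2; it was 1359 with no length limit, 472 with a mean of at least 20 and 1505 when the libraries with the labels iTreg and Th17 were left out, the last chosen after seeing the data. Leaving out 1 differentiated library gave 1059 to 1173. Median-ratio scaling, which raises the differentiated 5hmC libraries by 0.15 to 0.30 on the log2 scale, gave 1692, among them all 882. The median 5mC difference of -0.152 became -0.035 under that scaling, when the gene areas that met the conditions moved from -0.082 to 0.035, and it ran from -0.193 to -0.141 when 1 5mC library was left out. Members with naive 5mC at least 1.3 times the mean of the 4 numbered 119 under scaling (13.5%, against 7.13% of the gene areas that met the conditions). They were 373 at a fold of 1.2 (42.3%, against 29.4%) and 93 at 1.5 (10.5%, against 5.4%). Of the 1692 chosen on scaled 5hmC they were 427 (25.2%, against 16.7%). In the other direction there were 75 under scaling (8.5%, against 13.0%), 71 at 1.2 (8.05%, against 11.5%) and 14 at 1.5 (1.59%, against 2.46%). Of those 1692 there were 84 (4.96%, against 6.5%). Members were thus further towards lower 5mC than the background in each of these, while the sign of the median over the background itself depended on scaling. After scaling, the library labelled Th17 was highest in 462 members, Th2 in 187 and the library labelled iTreg in 134. Rounding to 0.1 limits 5mC ratios where the signal is under 1, and unknown depth limits all values.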

Other observations

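Among gene areas of at least 3000 bp, 1 was listed at 0 in the naive 5hmC library with at least 5 in each of the 4 others, and the same pattern with any other library at 0 was found in 0. It is the member 5730559C18Rik on chromosome 1, 138110107 to 138130840. Its 5hmC read 12.3, 11.1, 7.7 and 14.4 in the Th1, Th2, iTreg-labelled and Th17-labelled libraries, and its naive 5mC read 1.5, its input 2.0 and its IgG 0.8. The gene areas on either side, 2310006M14Rik and Gm3878, read 25.5 and 14.9 in the naive 5hmC library. No ratio is given for a value listed at 0 in a gene area of 20733 bp.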
